A study of Mus musculus with 8 samples.

Results

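The genes of the nuclear pore and of the importin and exportin families were examined for trimethylation of histone H3 at lysine 36 (H3K36me3) in mouse fibroblasts at the start of reprogramming. Members were the protein-coding genes of GENCODE release M21 on chromosomes 1 to 19 whose symbol begins with Nup, Kpna, Kpnb, Ipo, Xpo or Tnpo followed by a digit. This naming rule, which used no measured value, gave 42 of 20722 genes. All libraries came from i4F MEFs, mouse embryonic fibroblasts with a cassette for OCT4, SOX2, KLF4 and MYC (OSKM) that doxycycline switches on. The fibroblasts were taken at embryonic day 13.5 and are named in the labels as a single clone, so every group, controls included, carried the cassette in 1 genetic background. All cells were kept in iPSC medium for 72 h. The MEF group received neither doxycycline nor added vitamin B12, the MEF B12 group received 2 µM vitamin B12, the OSKM group received doxycycline, and the OSKM B12 group received doxycycline and 2 µM vitamin B12. The labels give doxycycline at 1 µg/ml, and the methods give the same figure in mg/ml. Each group had 1 H3K36me3 ChIP–seq library and 1 input library, so differences between groups rest on single libraries and were not tested. The sample tags name the precipitated mark as H3K36m3, whereas the extraction notes of the labels write H3K3me3 for the antibody.

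A nuclear pore is a ring of nucleoporins set in the nuclear envelope: scaffold rings (the Y complex and the inner ring) hold a channel lined with unfolded, phenylalanine-glycine rich nucleoporins, with filaments on the cytoplasmic face and a basket on the nuclear face. Cargo crosses it on transport receptors. Importin alpha proteins read the classical nuclear localization signal and bind importin beta, other members of the beta family carry their own cargo inwards, and exportins carry cargo outwards with the GTPase Ran. H3K36me3 is laid down along the bodies of genes as RNA polymerase II transcribes them, and it is usually densest towards the 3′ end.

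For each of the 4 peak lists, the covered share of a gene was the percentage of its body (the longest protein-coding transcript) that lay in H3K36me3 peaks. Its density was the mean over all bases of the body of the peak caller's pileup per 1000000 tags, with bases outside peaks counted as 0. A gene was called marked where its covered share averaged at least 10% over the 4 libraries. Of the 42 members, 39 were marked (92.9%), against 8966 of all 20722 genes (43.3%). Tags per library ran from 29046913 in MEF B12 to 33399267 in OSKM, and the peak lists held between 64364 and 67234 peaks on chromosomes 1 to 19. Peaks covered 91.8 Mb in OSKM and between 150.5 and 163 Mb in the other libraries. Of 8 fibroblast markers, 7 were covered over at least 10% of the body in every library, whereas none of 4 epithelial, 2 endothelial or 4 pluripotency markers was. Of 2 blood markers 1 was covered in every library, and of 2 neural markers 1 was covered in every library but OSKM.

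Sequences of 5 internal exons are given to show where a peak was called in all libraries and where it was missing from OSKM alone. The first pair come from the members with the highest mean density, Kpnb1 and Ipo4, and lie in the longest stretch called in all 4 libraries, which measured 16.3 kb in Kpnb1 and 8.88 kb in Ipo4. The other 3 come from the members with the largest difference between OSKM and MEF, and lie in the longest stretch that was called in every library but OSKM, which measured 1.60 kb in Nup43, 2.37 kb in Nup153 and 2.83 kb in Tnpo3. Sequences are from GRCm38 (mm10), written 5′ to 3′ on the coding strand, with the exon in capitals and 30 intronic bases on either side in lower case. The coordinates are those of the whole printed run.
Kpnb1 exon 11 (chr11:97171492-97171743, minus strand): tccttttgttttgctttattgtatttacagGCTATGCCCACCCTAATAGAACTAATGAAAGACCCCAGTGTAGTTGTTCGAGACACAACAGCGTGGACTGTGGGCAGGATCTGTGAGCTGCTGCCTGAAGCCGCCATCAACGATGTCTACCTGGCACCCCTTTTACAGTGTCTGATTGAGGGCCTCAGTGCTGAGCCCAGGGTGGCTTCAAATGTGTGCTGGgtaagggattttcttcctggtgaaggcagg
Ipo4 exon 19 (chr14:55629719-55629897, minus strand): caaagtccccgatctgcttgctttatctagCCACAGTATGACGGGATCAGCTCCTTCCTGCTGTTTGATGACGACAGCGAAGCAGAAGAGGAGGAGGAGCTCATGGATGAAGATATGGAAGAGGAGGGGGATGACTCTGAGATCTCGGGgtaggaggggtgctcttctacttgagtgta
Nup43 exon 6 (chr10:7674976-7675187, plus strand): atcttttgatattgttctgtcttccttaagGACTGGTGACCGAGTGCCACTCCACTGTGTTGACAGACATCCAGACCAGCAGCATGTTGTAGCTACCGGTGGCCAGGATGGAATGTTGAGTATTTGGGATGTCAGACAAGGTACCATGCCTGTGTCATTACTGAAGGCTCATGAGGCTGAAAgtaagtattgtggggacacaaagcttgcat
Nup153 exon 5 (chr13:46712603-46712791, minus strand): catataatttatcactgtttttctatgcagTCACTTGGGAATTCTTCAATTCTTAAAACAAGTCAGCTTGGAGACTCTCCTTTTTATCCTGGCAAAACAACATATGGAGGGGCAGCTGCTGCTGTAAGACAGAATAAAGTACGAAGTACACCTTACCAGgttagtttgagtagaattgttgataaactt
Tnpo3 exon 14 (chr6:29562828-29562964, minus strand): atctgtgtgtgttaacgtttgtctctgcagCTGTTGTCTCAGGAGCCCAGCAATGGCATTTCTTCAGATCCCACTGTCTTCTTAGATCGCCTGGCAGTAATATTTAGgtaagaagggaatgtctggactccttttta
The peaks over the Kpnb1 exon had a scaled pileup (pileup per 1000000 tags) of 0.996 for MEF, 1.17 for MEF B12, 0.692 for OSKM and 1.15 for OSKM B12. Over the Ipo4 exon the values were 0.977, 1.15, 0.662 and 1.27 in the same order. The pileup is the mean of the whole peak and does not resolve the exon within it. Both exons lay in a peak in OSKM, with a pileup below that of the other libraries. The Nup43 exon lay in a peak with a scaled pileup of 0.447 in MEF, 0.468 in MEF B12 and 0.534 in OSKM B12, the Nup153 exon in peaks of 0.529, 0.702 and 0.585, and the Tnpo3 exon in peaks of 0.601, 0.706 and 0.665. None of these 3 exons lay in a peak in OSKM.

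The members were among the more densely marked genes. Their mean covered share over all 42 was 60.7% for MEF, 63.2% for MEF B12, 43.3% for OSKM and 62.8% for OSKM B12, and their mean density was 0.410, 0.488, 0.225 and 0.497 in the same order. In every marked member, OSKM gave the lowest density and the lowest covered share of the 4 libraries, as it did in 97.8% and 92.6% of all marked genes. The highest density stood in MEF B12 for 21 and in OSKM B12 for 18 of the 39 marked members. All marked genes leaned the other way between these libraries. Of 8966, density was lower in OSKM B12 than in MEF B12 in 3282 and higher in 5683. For comparison, the mean density over all 8966 marked genes was 0.323, 0.384, 0.178 and 0.405. The median marked member stood at the 75.8th percentile of marked genes in MEF, the 77.4th in MEF B12, the 66.8th in OSKM and the 71.5th in OSKM B12. Members were also longer than other marked genes, with a median body of 48.0 kb and 24 exons against 20.9 kb and 9 exons.

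**Figure D1:**
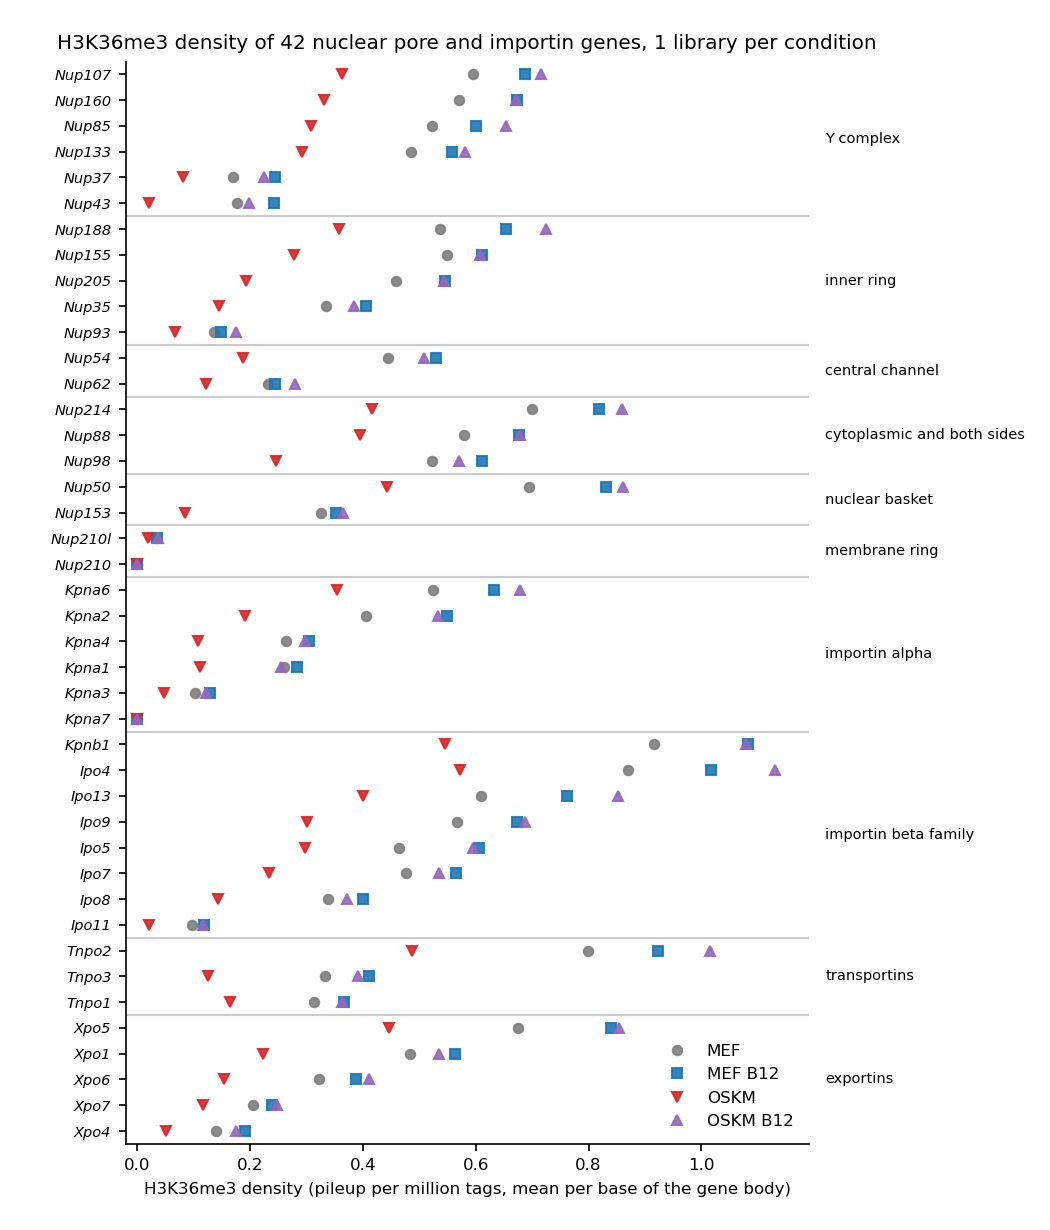
Density of H3K36me3 (horizontal axis, pileup per 1000000 tags averaged over the gene body) for each of the 42 members (vertical axis, grouped by role), with 1 point per library. The OSKM point is the leftmost for each of the 39 marked members, Kpnb1 and Ipo4 reach the highest values, and Nup210 and Kpna7 sit at 0.

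Among the 6 members of the Y complex, the scaffold of the outer rings, Nup107 had the highest mean density, at 0.594 for MEF, 0.687 for MEF B12, 0.363 for OSKM and 0.715 for OSKM B12. Nup43 (chr10:7667503-7678881, plus strand), which encodes a small propeller-shaped subunit of that complex, had the lowest, at 0.177, 0.243, 0.0211 and 0.198. Its covered share was 41.6%, 54.2%, 6.07% and 41.3%. Nup43 thus kept a single peak of 0.691 kb in OSKM, in which none of its 8 exons was covered over 50% of its bases. Its body lies wholly within the span of Pcmt1 on the opposite strand, and ChIP–seq does not tell the strands apart. Nup37, another small propeller subunit, had densities of 0.170, 0.245, 0.0803 and 0.225. Nup160, Nup85 and Nup133 lay between 0.486 and 0.570 in MEF and between 0.293 and 0.332 in OSKM. The body of Nup133 also lies wholly inside another annotated gene, Gm20388, so its bases cannot be allotted to 1 gene.

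The inner ring was led by Nup188, one of its large scaffold proteins, with densities of 0.536 for MEF, 0.653 for MEF B12, 0.357 for OSKM and 0.725 for OSKM B12. Gm28038, on the same strand, overlaps 25.4% of the Nup188 body. Nup93, which links the ring to the channel, was the lowest, at 0.135, 0.148, 0.0665 and 0.175. These are a high and a low member that both stood highest in OSKM B12. Nup155, Nup205 and Nup35 lay between 0.334 and 0.549 in MEF and between 0.145 and 0.278 in OSKM. In the central channel, Nup54 had densities of 0.445, 0.530, 0.188 and 0.508, and Nup62 had 0.232, 0.244, 0.122 and 0.279. The annotated Nup62 transcript has 2 exons and lies within other genes over its whole length, chiefly Il4i1 on the same strand.

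On the cytoplasmic face, Nup214, which forms filaments there with Nup88, had densities of 0.700 for MEF, 0.819 for MEF B12, 0.415 for OSKM and 0.859 for OSKM B12. Nup98, a channel protein found on both faces, was the lowest of this group, at 0.523, 0.612, 0.246 and 0.570. Nup88 had 0.580, 0.676, 0.394 and 0.678. Nup88 was thus marked almost equally in the B12 libraries. Nup50, a mobile protein of the nuclear basket, had densities of 0.694, 0.831, 0.442 and 0.861. Nup153 (chr13:46679905-46727940, minus strand), the basket protein that anchors it, had 0.325, 0.352, 0.0842 and 0.365, and covered shares of 59.0%, 57.0%, 18.6% and 64.9%. Nup50 was thus above Nup153 in all 4 libraries.

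The receptors spanned the widest range. Kpnb1 (chr11:97159714-97187881, minus strand), importin beta, had the highest mean density of all members, at 0.915 for MEF, 1.08 for MEF B12, 0.546 for OSKM and 1.08 for OSKM B12, and covered shares of 93.6%, 93.0%, 85.1% and 93.9%. Ipo4 (chr14:55625400-55635684, minus strand), a carrier of histones, followed at 0.870, 1.02, 0.572 and 1.13, with 86.3% of its body still covered in OSKM. Both stood above the 99.0th percentile of marked genes in each library. Ipo11, which carries ubiquitin-conjugating enzymes, was the lowest of the importin beta family, at 0.0972, 0.118, 0.0202 and 0.116. It also has the longest body of all members, 143 kb, of which 21.7%, 24.2%, 4.72% and 23.7% was covered. The other 5 members of the family, Ipo5, Ipo7, Ipo8, Ipo9 and Ipo13, lay between 0.339 and 0.610 in MEF and between 0.143 and 0.400 in OSKM.

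Among the importin alpha genes, whose products are the adaptors for the classical localization signal, Kpna6 had the highest densities, at 0.525 for MEF, 0.633 for MEF B12, 0.355 for OSKM and 0.679 for OSKM B12. Kpna3 had the lowest of the marked genes of this family, at 0.102, 0.129, 0.0471 and 0.122. Kpna2 had 0.406, 0.549, 0.192 and 0.532. The short Kpna2 gene (10.9 kb) thus lay above the long Kpna3 gene (74.7 kb) in all 4 libraries. Kpna1 had 0.261, 0.284, 0.111 and 0.256, and it was the single marked member with a lower density in OSKM B12 than in MEF. Kpna4 lay between 0.107 in OSKM and 0.304 in MEF B12.

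Tnpo2, a close relative of transportin 1, had densities of 0.800 for MEF, 0.923 for MEF B12, 0.487 for OSKM and 1.01 for OSKM B12. Tnpo1, the importer of hnRNP proteins, had 0.314, 0.366, 0.164 and 0.363, and Tnpo3 (chr6:29540827-29609887, minus strand), the importer of SR splicing factors, had 0.332, 0.411, 0.125 and 0.391. Tnpo2 was above both in each library. Among the exportins, Xpo5, which exports precursor microRNAs, was the highest, at 0.675, 0.840, 0.446 and 0.853. Xpo4 was the lowest, at 0.140, 0.191, 0.0514 and 0.175. Xpo1 (CRM1), the receptor for leucine-rich export signals, had 0.484, 0.564, 0.223 and 0.534, and its values are given although the rule for named genes did not select it. Xpo6, the exporter of actin, and Xpo7 lay between 0.117 in OSKM and 0.410 in OSKM B12.

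Only 3 members were not marked, and both genes of the membrane ring were among them. Nup210 (chr6:91013068-91116829, minus strand), a glycoprotein that spans the membrane around the pore, had no peak over its 104 kb in any library. Kpna7 (chr5:145007278-145084030, minus strand), the importin alpha of oocytes and early embryos, had none over its 76.8 kb. For these genes no enrichment was detectable at this depth. Nup210l (chr3:90104134-90212048, plus strand), a paralogue of Nup210, was covered over 4.57% for MEF, 4.56% for MEF B12, 4.07% for OSKM and 5.01% for OSKM B12 of its 108 kb. These bases lay at its 3′ end, from 102 kb past the start onwards, and the peaks ran between 360 and 866 bases past it, towards Rps27, a gene on the opposite strand whose nearer edge lies 474 bases past that end. OSKM B12 held 1 further peak, at 35.7 kb.

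The first comparison asked how the mark on these genes differed with OSKM induction. Density was lower in OSKM than in MEF in 39 of 39 marked members, and past counting error (95% counting interval of the ratio below 1) in each. It was lower in 98.4% of all marked genes, and past counting error in 93.1%, so these counts of members are close to the background. The ratio of OSKM to MEF ran from 0.119 in Nup43 to 0.680 in Nup88, with a median of 0.506. Here a log2 change is that of density plus a pseudocount of 0.05, which makes changes of weakly marked genes smaller, and intervals on ratios cover counting error only. In 32 of 39 members the density was at least 1.5-fold lower on that scale, while 69.3% of all marked genes were. The median log2 change was −0.75 in members and −0.71 in all marked genes. Marked genes with a body between 23.8 and 69.6 kb, the quartiles of the marked members, had a median of −0.76, and 78.3% of these 2846 genes were at least 1.5-fold lower. The difference was thus close in size to that of other marked genes of like length. The bulk libraries do not tell fewer cells with the mark from less of it per cell. Over the bases called in all 4 libraries genome-wide, the mean scaled pileup was 0.669 for MEF, 0.761 for MEF B12, 0.505 for OSKM and 0.794 for OSKM B12, and its part in the result was not tested. Divided by these means, the median log2 change was −0.45 in members and −0.41 in all marked genes, and 14 of 39 members and 31.6% of all marked genes were at least 1.5-fold lower. With only peaks whose −log10 q was 5 or more, the ratio of mean density over all 42 members was 0.206 in place of 0.548, and the median log2 change was −1.76 in 33 marked members and −2.14 in all genes marked by those peaks.

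Nup43 had the largest difference, with a log2 change of −1.67 and a ratio of 0.119 (95% counting interval 0.0805 to 0.177). Nup153 followed with −1.48 and a ratio of 0.259 (0.234 to 0.287), and Tnpo3 with −1.13 and 0.377 (0.350 to 0.405). These are a scaffold, a basket and a receptor gene, so the largest differences did not fall in 1 role. Bases outside peaks count as 0 in these densities, and the intervals do not cover the calling of peaks. Over the bases called in all 4 libraries, the ratio of peak pileup was 0.779 in Nup43 (342 bases), 0.754 in Nup153 and 0.793 in Tnpo3. The median over members was 0.754, so the peaks that remained in these genes did not stand out by pileup. Such bases are by definition called in OSKM, so this ratio leaves out the part of the body that was not. It therefore cannot show whether these genes differed more as a whole. Relative to the median change of all marked genes, Nup43 and Nup153 were still at least 1.5-fold lower, as were 6.48% of all marked genes, and no member was at least 1.5-fold higher. The weakly marked Ipo11 had a ratio of 0.208 (0.185 to 0.234), but a log2 change of −1.07 with the pseudocount. The smallest differences were −0.50 in Nup88, −0.51 in Kpna6 and −0.53 in Nup188, with ratios of 0.680 (0.632 to 0.732), 0.676 (0.628 to 0.728) and 0.666 (0.632 to 0.702). By role, the median log2 change ran from −0.69 in the Y complex and on the cytoplasmic face to −0.92 in importin alpha and −1.04 in the basket, which holds 2 genes.

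Members with a higher density in the B12 libraries tended to have a smaller difference in density over the whole body. Across the 39 marked members, the log2 change from MEF to OSKM and the mean density in the B12 libraries, which do not enter that change, had a Spearman correlation of 0.549. It was 0.153 across all 8966 marked genes and 0.110 across those of like length. Genes are not independent replicates, all values share 4 libraries, and the pseudocount acts on weakly marked genes, so these figures are descriptions. Over the bases called in all 4 libraries, the pileup of OSKM relative to MEF had a median of 0.754 in members and ran from 0.654 in Kpnb1 to 0.977 in Ipo11, where only 2716 bases were shared. By this ratio the members at the ends of the density range stood the other way round. The densest, Kpnb1, Ipo4, Tnpo2 and Nup50, had 0.654, 0.678, 0.676 and 0.676. The least dense marked members, Ipo11, Kpna3, Nup93 and Xpo4, had 0.977, 0.835, 0.764 and 0.801. The correlation was not computed for this ratio. Members thus differed both in how much of the body was called and in the pileup of the peaks over the bases that stayed called. That pileup is the mean of each whole peak, and peaks were shorter in OSKM, so it does not measure those bases alone.

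**Figure D2:**
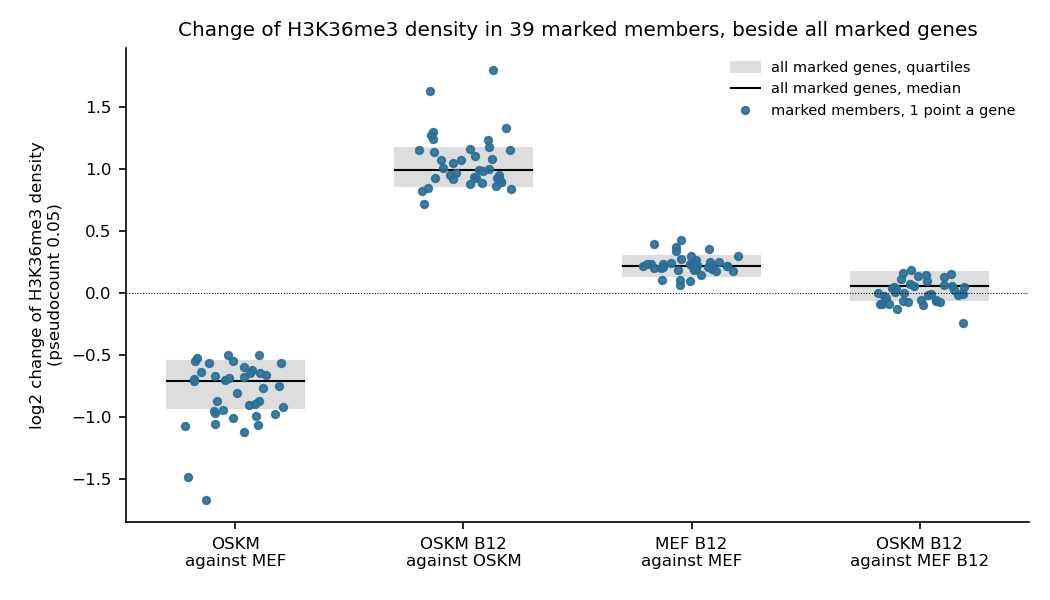
Log2 change of density in each of the 4 comparisons (vertical axis, pseudocount 0.05), with 1 point for each of 39 marked members, a grey box for the quartiles and a black line for the median of all 8966 marked genes. Most members sit near the median of all marked genes in each comparison. Nup43 and Nup153 lie apart, at −1.67 and −1.48 in OSKM against MEF and at 1.80 and 1.63 in OSKM B12 against OSKM. In OSKM B12 against MEF B12, 29 of 39 members lie below that median.

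The second comparison set vitamin B12 in the induced cells against no added B12. It shares the OSKM library with the comparison above, so the changes of the members in the 2 comparisons are not independent. Against OSKM, OSKM B12 had the higher density in 39 of 39 marked members and in 99.7% of all marked genes. The difference was at least 1.5-fold in all 39 members and in 95.7% of all marked genes. The median log2 change was 0.99 both in members and in all marked genes. The 3 largest changes were in Nup43 (1.80), Nup153 (1.63) and Tnpo3 (1.33), with ratios of 9.35 (6.31 to 13.9), 4.34 (3.92 to 4.80) and 3.12 (2.90 to 3.35). Nup88 had the smallest ratio, 1.72 (1.60 to 1.85). These ratios count bases outside peaks as 0. Over the bases called in all 4 libraries, the ratio of peak pileup was 1.48 in Nup43 (342 bases), 1.35 in Nup153 and 1.36 in Tnpo3. The median over members was 1.54, so by the pileup of these bases these 3 were not the largest changes. Here too, the part of the body without a peak in OSKM is left out. Relative to the median of all marked genes, 2 members, Nup43 and Nup153, were still at least 1.5-fold higher, and so were 5.19% of all marked genes. With the scaling to shared bases, 13 of 39 members and 36.7% of all marked genes were at least 1.5-fold higher, at medians of 0.43 and 0.48.

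Vitamin B12 in cells without doxycycline went with a small difference. Density was higher in MEF B12 than in MEF in 39 of 39 marked members, past counting error in 38, with ratios from 1.05 to 1.44. Of all marked genes 91.9% were higher, 72.5% past counting error, and of those of like length 86.8% were higher past counting error. None of the 39 was at least 1.5-fold higher, and 3.71% of all marked genes were. The median log2 change was 0.22 in members and 0.21 in all marked genes. The largest changes were 0.42 in Nup37, 0.39 in Kpna2 and 0.37 in Nup43, with ratios of 1.44 (1.30 to 1.61), 1.35 (1.20 to 1.52) and 1.37 (1.15 to 1.64). The smallest were 0.060 in Nup62, 0.094 in Nup93 and 0.10 in Nup153, and the interval of the Nup62 ratio, 0.910 to 1.21, held 1. Pileup divided by the mean over bases called in all 4 libraries, in place of division by tags, reduced the median of the members to 0.054 and that of all marked genes to 0.053. The size of the excess in MEF B12 therefore depended on the scaling. Division by that mean also removes any difference that all marked genes share. The lower medians thus do not show whether the excess was one of scale, which was not tested.

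With vitamin B12 added to both, the densities of induced and non-induced cells lay close together. None of 39 members was at least 1.5-fold lower in OSKM B12 than in MEF B12, and 1.14% of all marked genes were. The ratio ran from 0.813 in Nup43 (0.682 to 0.969) to 1.18 in Nup93 (1.10 to 1.27). The median log2 change was −0.0041 in members and 0.056 in all marked genes, and 29 of 39 members lay below the median of all marked genes. Of the members, 9 were higher and 5 lower past counting error, against 32.7% and 15% of all marked genes. Each of those 9 was lower in OSKM than in MEF, as was every marked member. This pair of opposite differences was found in 30.6% of all marked genes and in 23.1% of marked members. The 9 higher ones were Ipo4, Tnpo2, Nup214, Ipo13, Nup188, Kpna6, Nup85, Xpo6 and Nup93. The 5 lower ones were Nup98, Ipo8, Kpna1, Nup43 and Xpo4.

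Peaks on the members were broken into more and shorter pieces in OSKM. The bodies of all 42 members held 298 peaks for MEF, 246 for MEF B12, 450 for OSKM and 264 for OSKM B12. The longest peak of a marked member had a median length of 12.3 kb in MEF, 14.5 kb in MEF B12, 5.17 kb in OSKM and 16.1 kb in OSKM B12. It was shorter in OSKM than in MEF in 39 of 39 marked members, and in 92.9% of all marked genes. More peaks in OSKM than in MEF were seen in 29 of 39 members, against 45.5% of all marked genes and 56.2% of those of like length. A peak of at least 10 kb was found in 24 members for MEF, 24 for MEF B12, 7 for OSKM and 26 for OSKM B12. Such a peak was found in 23.3%, 27.5%, 5.32% and 26.6% of all marked genes in the same order, and in 38.1%, 45.8%, 8.75% and 44.2% of those of like length.

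Xpo1 was an example. Its 42.2 kb held 5 peaks in MEF, the longest of 22.4 kb, and 13 peaks in OSKM, the longest of 3.59 kb. OSKM B12 held 3 peaks, the longest of 28.3 kb. The body was thus covered by a few long peaks in every library but OSKM. Nup214 held 4 peaks in MEF, 21 in OSKM and 3 in OSKM B12. Ipo4 held 1 peak in each library, of 9.16 kb in MEF, 9.07 kb in MEF B12, 8.88 kb in OSKM and 9.13 kb in OSKM B12. It was the marked member whose peak length differed least in percent of the body, from 86.3% in OSKM to 89.1% in MEF. The weakly marked Ipo11 had fewer peaks in OSKM, 13 against 32 in MEF, as did Nup43, with 1 against 3. In all, 8 members had fewer peaks in OSKM than in MEF and 2 had as many.

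**Figure D3:**
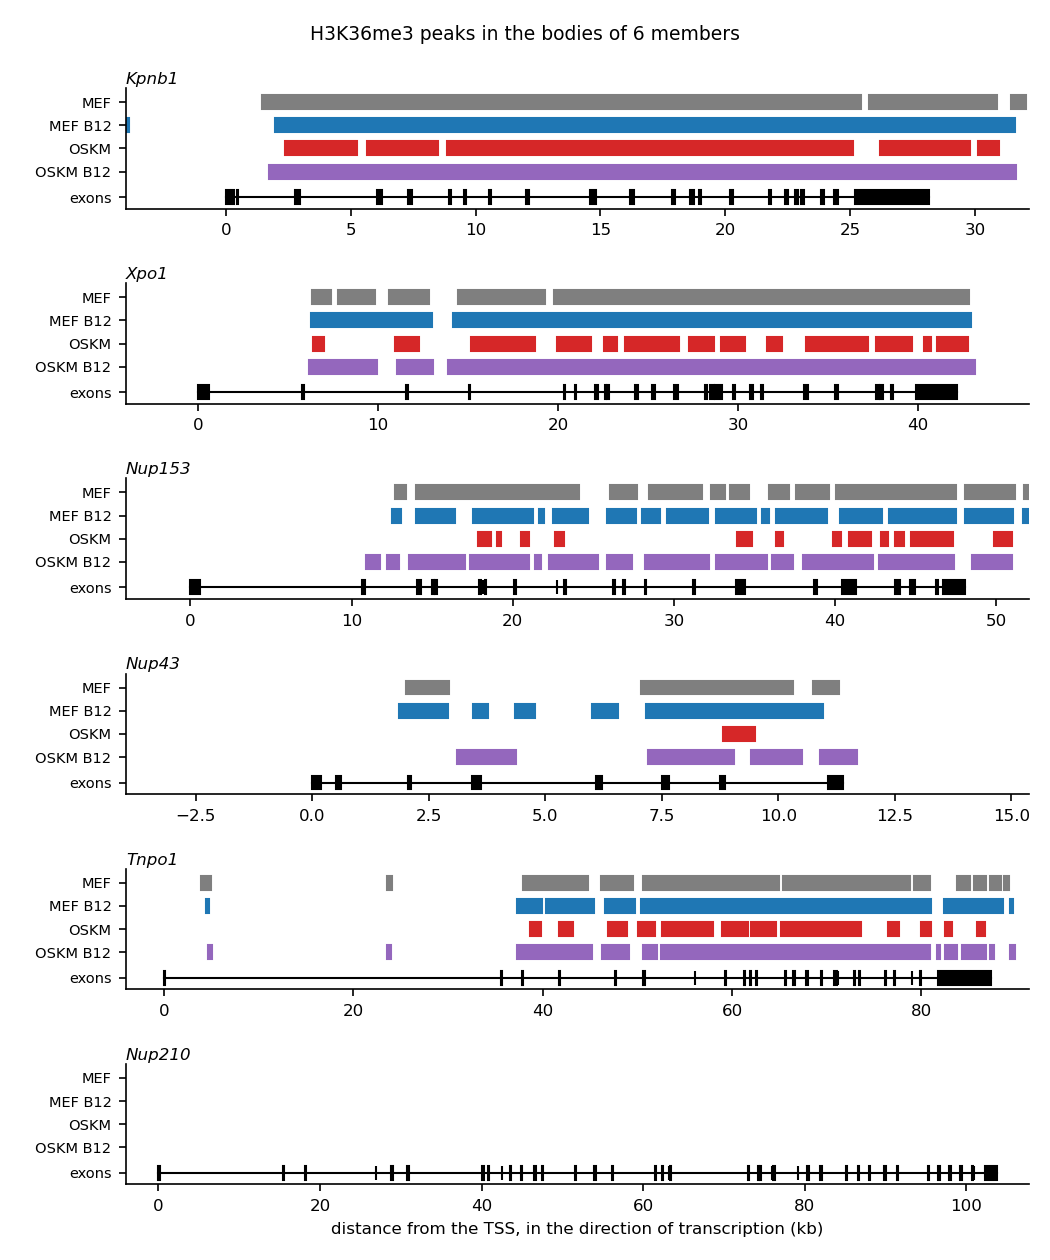
Peaks (coloured bars) of each library along the bodies of 6 members, with exons in black below and the distance from the start site in kb on the horizontal axis, in the direction of transcription. Kpnb1 stays covered in all 4 libraries, Xpo1, Nup153 and Tnpo1 are split or thinned in OSKM, Nup43 keeps 1 short peak in OSKM, and Nup210 holds none.

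**Figure D4:**
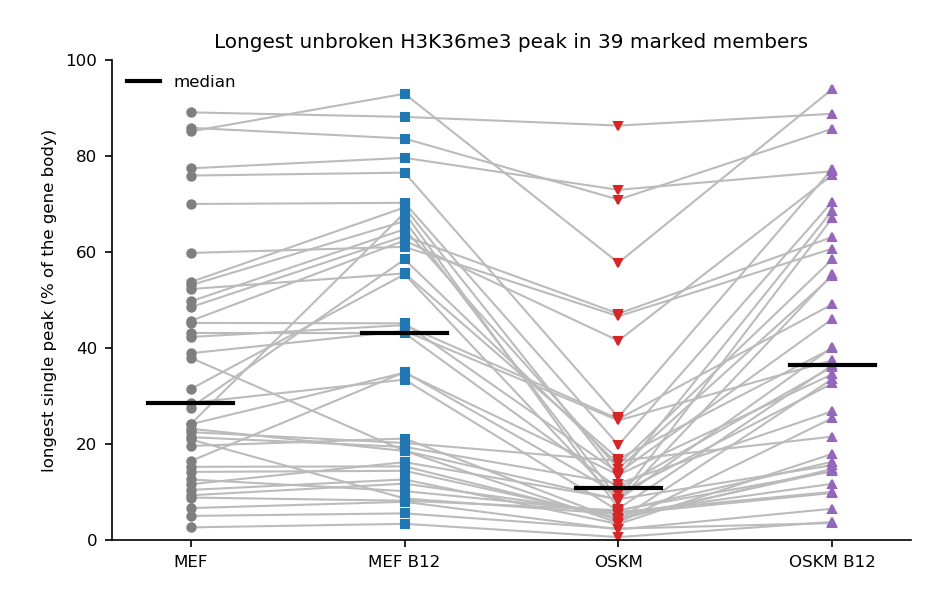
Longest single peak as a percentage of the gene body (vertical axis) in each library (horizontal axis) for 39 marked members, with grey lines joining the values of 1 gene and black bars for the medians. The median is 28.6% for MEF, 43.1% for MEF B12, 10.8% for OSKM and 36.4% for OSKM B12.

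Along the gene body, the mark left the start free and grew towards the 3′ end. In MEF, the first 20% of the body was covered over 23.6% on average in marked members, and the last 20% over 84.5%. In OSKM the values were 15.8% and 64.0%, in MEF B12 23.6% and 88.9%, and in OSKM B12 25.3% and 86.9%. The ratio of the last to the first 20% was thus 3.58 in MEF and 4.04 in OSKM, against 5.47 and 7.10 in all marked genes and 3.64 and 4.70 in those of like length. By this ratio the members were thus closer to genes of like length than to all marked genes. The last 20% was more covered in members than in either set in each library. In MEF it was covered over 74.7% in all marked genes and 72.7% in those of like length. No peak of a marked member lay over its start site or its first exon in any library.

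**Figure D5:**
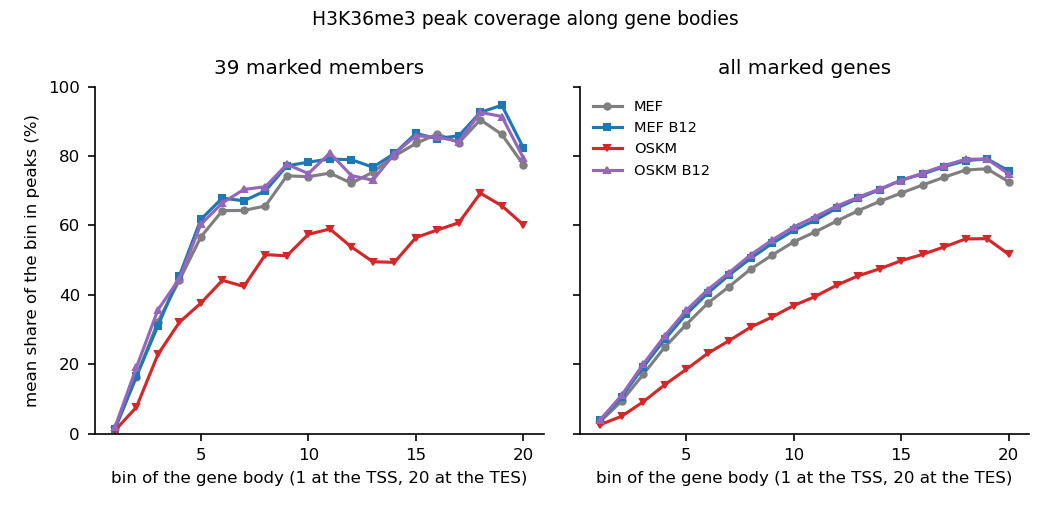
Mean share of each bin in peaks (vertical axis, percent) over 20 equal bins of the gene body from the start site to the end of the transcript (horizontal axis), for 39 marked members on the left and all 8966 marked genes on the right. The OSKM line lies below the others in both panels, and in members the covered share is over 50% by bin 5 in every library but OSKM.

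Within the bodies, the first intron was set apart from the rest. The 39 first introns of the marked members spanned 385 kb and were covered over 2.54% for MEF, 2.31% for MEF B12, 0.753% for OSKM and 3.67% for OSKM B12. Their later introns were covered over 72.3%, 75.5%, 47.8% and 75.0%, and their exons over 76.2%, 81.1%, 60.4% and 79.6%. First introns of all marked genes were covered over 7.28%, 8.41%, 3.37% and 9.38%. The members' first introns were thus less covered than those of other marked genes, while their later introns and exons were more covered. Exons with at least 50% of their bases in peaks numbered 761 of 891 for MEF, 776 for MEF B12, 593 for OSKM and 769 for OSKM B12. Such exons were not counted over all marked genes. The exon bases of all marked genes were covered over 70.1%, 72.8%, 51.5% and 72.3%, so these too were least covered in OSKM.

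The first peak began at a median of 4.27 kb from the start site in MEF, 4.73 kb in MEF B12, 6.42 kb in OSKM and 4.71 kb in OSKM B12. It began over 1 kb later in OSKM than in MEF in 14 members and over 1 kb earlier in 1 of 39. Of the 8707 marked genes with a peak in both libraries, 35.4% began over 1 kb later and 7.37% over 1 kb earlier, so the 14 members (35.9%) are close to the background. In Tnpo1 the first peak lay at 3.96 kb in MEF, 4.46 kb in MEF B12, 38.6 kb in OSKM and 4.71 kb in OSKM B12. That first peak lay in the first intron of Tnpo1 in every library but OSKM, where it lay in intron 3. In Kpna4 the first peak lay between 25.7 and 25.9 kb in all 4 libraries, and in Xpo4 between 23.3 and 23.4 kb. The onset thus hardly moved in some members whose first peak lay far from the start. Peaks reached past the end of the transcript in 27 marked members for MEF, 29 for MEF B12, 18 for OSKM and 29 for OSKM B12, and in 66%, 69.3%, 44.1% and 67.7% of all marked genes.

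Other genes of the pore and of nuclear transport, left out by the naming rule, gave a like picture in the changes of density, but less so in the shape of peaks. All 24 on that list, which includes the basket protein Tpr, the filament protein Ranbp2, the membrane nucleoporins Pom121 and Ndc1, the GTPase Ran and the mRNA exporter Nxf1, were marked. At least 1.5-fold lower density in OSKM than in MEF was found in 18 of 24 (32 of 39 in members), and at least 1.5-fold higher density in OSKM B12 than in OSKM in 23 of 24. None was at least 1.5-fold higher in MEF B12 than in MEF, or at least 1.5-fold lower in OSKM B12 than in MEF B12. Their median log2 changes were −0.65, 0.96, 0.23 and 0.068 in the 4 comparisons. Pom121, which unlike Nup210 was marked, had densities of 0.832 for MEF, 0.971 for MEF B12, 0.532 for OSKM and 1.04 for OSKM B12. The longest peak was shorter in OSKM than in MEF in 22 of 24, and more peaks were seen in 13 of 24 (29 of 39 in members). Peaks reached past the end of the transcript in 20 of 24 for MEF and 19 for OSKM, against 27 and 18 of 39 members. In all marked genes these shares were 66% and 44.1%. A peak of at least 10 kb was found in 11 of 24 for MEF and 1 for OSKM, against 24 and 7 of 39 members. In all marked genes such peaks were found in 23.3% and 5.32%.

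Promoters were matched in RefSeq sequence (GRCm38.p6, 250 bases before to 50 after the start) for 33 of 42 members. The median ratio of observed to expected CpG was 0.933 in members and 0.616 in all 15695 promoters. With both strands searched, CCAAT was found in 57.6% of members and 38.4% of all promoters, CACGTG in 18.2% and 8.09%, CCGGAAG in 18.2% and 12.6%, and TATAAA in 6.06% and 12.9%. In counts, 19 member promoters held CCAAT, 6 held CACGTG, 6 held CCGGAAG and 2 held TATAAA. The matches describe the sequence and are not sites. All promoters here include those of genes that were not marked, and promoters of marked genes alone were not compared. These differences therefore cannot be read as particular to the members.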

How the data were processed

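The data were 4 H3K36me3 ChIP–seq libraries of mouse fibroblasts, each with an input library. Reads were aligned by the authors to mm10 with Bowtie 0.12.9, runs of a library were merged, duplicates were removed, and broad peaks were called in each library against its own input with MACS2 2.2.6, at q-value cut-offs of 0.05 and 0.1. The deposited pileup, a signal, is the average depth of extended fragments over a peak. The deposited fold enrichment is a ratio to the local input. The authors give significance as −log10 values, of a p-value and a q-value per peak. Peak length, also given by the authors, is in bases. Fold enrichment and q-values were used only to filter peaks, and p-values only to rank them.

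From these lists, covered share and density per gene body were computed with Python 3.11 and numpy 2.4.6, and the interval sums were tested on simulated data. Sequences were read with samtools 1.23.1 and figures drawn with matplotlib 3.10.9. Peaks outside chromosomes 1 to 19 were left out (1110 to 2315 per list). Ranges on ratios are 95% counting intervals from the estimated number of fragments behind each density (depth 29046913 to 33399267 tags). They do not cover differences between cultures or between precipitations, and no test was run, since each condition had 1 library. The genes given with values in all libraries were the highest and lowest marked member of each role, the 3 with the largest and smallest changes, and every unmarked member. Xpo1 and Kpna1 were also given, although that rule did not select them. The members, roles and lists were chosen with earlier results of these data known. Alternatives were stricter peak sets, other scalings, pseudocounts, gene bodies and minimum shares. Changes relative to the median of all marked genes, and genes of like length as background, were added after seeing the data.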

Additional observations from a re-analysis of the deposited data

Results flagged for a closer look

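For 9 marked members, density was lower in OSKM than in MEF but higher in OSKM B12 than in MEF B12, each past counting error. All 39 marked members were lower in OSKM past counting error, so the 9 are simply those higher in OSKM B12. The ratio of OSKM B12 to MEF B12 was 1.18 in Nup93, 1.12 in Ipo13, 1.11 in Ipo4, 1.11 in Nup188, 1.10 in Tnpo2, 1.09 in Nup85, 1.07 in Kpna6, 1.06 in Xpo6 and 1.05 in Nup214. With 1 library per condition, the difference between the pairs of libraries was not tested. Such opposite signs were found in 23.1% of marked members and 30.6% of all marked genes. The scaling to bases called in all 4 libraries took the ratio of the mean density of all members from 1.02 to 0.976. It took the median log2 change of marked members from −0.0041 to −0.055. The counting intervals of the 9 genes were not recomputed with that scaling, so their calls hold for division by tags only.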

How the results depend on the processing

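The counts of members were recomputed under stricter peak sets, other scalings, pseudocounts, gene bodies and minimum covered shares. The count of members at least 1.5-fold lower in OSKM than in MEF (32) became 14 with the scaling to shared bases (31.6% of all marked genes), 14 with a pseudocount of 0.2 (22.7%), 1 over the bases called in all 4 libraries (5.75%), and 2 relative to the median of all marked genes (6.48%), an alternative chosen after seeing the data. The count at least 1.5-fold higher in OSKM B12 than in OSKM (39) became 13, 24 and 2 with the scaling to shared bases, over the bases called in all 4 libraries, and relative to that median (36.7%, 50.03% and 5.19% of all marked genes). Keeping only peaks whose −log10 q was 5 or more left 33 marked members, of which 9 were at least 1.5-fold higher in MEF B12 than in MEF (19.1% of all genes so marked), where none was before. With these peaks the ratio of mean density over all members went from 0.548 to 0.206 for OSKM to MEF and from 2.21 to 6.92 for OSKM B12 to OSKM. The cause of these shifts was not tested. The 0 members at least 1.5-fold lower in OSKM B12 than in MEF B12 stayed 0 under every alternative run, and the marked members numbered 33 to 39. Of 52 alternative ratios over all members, 50 lay on the same side of 1. The ratio of mean density in OSKM B12 to MEF B12 turned from 1.02 to 0.976 with the scaling to shared bases. No paired analysis was possible because there was 1 library per condition. Leaving out a library was not possible for the same reason. Depth limits the unmarked genes, where weak enrichment would not be called, and peak lists hold no values between peaks.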
